A study of Mus musculus with 6 samples.

Results

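Cytochrome P450 family 2 is the set of haem monooxygenases whose genes are named Cyp2 with a subfamily letter. Its members were taken as every probe set whose only platform gene symbol is Cyp2 followed by a lower-case letter, and the probe set with the highest mean over the 6 arrays stood for a gene. This gave 35 genes, measured by 42 of 45037 probe sets, among 18193 genes in all. RefSeq lists 48 protein-coding Cyp2 genes, of which 34 were among the 35, and the other one is listed as a transcribed pseudogene. RNA was from the proximal colon of 3 Hnf4a mutant mice and 3 wildtype controls, littermates killed at 1 year of age, with 1 Affymetrix mouse genome array per mouse. The mutants carried loxP sites on both copies of Hnf4α and a Cre driven by a Villin promoter fragment, which is active in gut epithelium. The labels call the controls wildtype and do not give their loxP or Cre alleles. The study describes colon inflammation in mutants of this age, and the RNA was extracted from tissue rather than from sorted epithelium. Fewer epithelial cells and less RNA per cell therefore cannot be told apart in these values.

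P450 enzymes of family 2 sit in the membrane of the endoplasmic reticulum and insert 1 atom of oxygen from O2 into a substrate, with electrons passed on by NADPH-P450 reductase or by cytochrome b5. They are best known from the liver, where they oxidise drugs, steroids, fatty acids and plant compounds. Gut epithelium holds a smaller set, which meets such compounds as they enter from the lumen. HNF4α is a nuclear receptor that binds DNA as a homodimer and is an activator of many P450 genes of the liver, those of the Cyp2d and Cyp2c subfamilies among them.

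All values below are log2 signals by RMA, a method that corrects background, makes the arrays share a distribution and summarises the probes of a set. Hnf4a itself read 10.17, 10.09 and 10.15 in the mutants, against 12.23, 12.01 and 11.97 in the controls, so every mutant lay below every control (log2 fold change -1.94, SE 0.10, adjusted p = 0.000788 by limma). Which exons its probes match was not analysed here, so this signal does not measure how much of the gene was removed. The labels name mutant 1 and the controls as female and mutants 2 and 3 as male, but Xist was between 5.03 and 5.32 in the mutants and between 9.94 and 10.96 in the controls. By RNA all 3 mutants were male and all 3 controls female, and sex and genotype cannot be told apart for any gene below. Mutant 2 stood apart in muscle and matrix RNA. The median of 14 smooth muscle markers, relative to the control mean, was -3.96 in mutant 2, -0.29 in mutant 1 and -0.46 in mutant 3, whereas that of 12 gut epithelium markers was between -0.03 and 0.19 in the mutants. For 13 leukocyte markers the median log2 fold change was -0.22, with 4 positive and 9 negative. None of the markers in these lists passed the test. The 3 Y-linked genes measured, which female tissue does not express, lay between 2.75 and 4.01 in the controls and give a scale for background signal.

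Most of the family did not differ between the groups beyond the test. In the mutants 1 of the 35 genes rose (Cyp2f2) and 2 fell (Cyp2d26 and Cyp2d22) at an adjusted p under 0.05 by limma, with the adjustment over all probe sets, and 32 were not called. Among all genes 0.484% rose and 0.396% fell. The family had a median log2 fold change of 0.05, the same as that of all genes. Of the 35 genes 24 differed by less than 0.5 in size, beside 16105 of the 18193 genes in all. The 3 mutants lay above the 3 controls for 6 genes and below them for 8, while the groups overlapped for 21. Over all genes 14.5% lay above and 8.86% below. By a looser threshold, an unadjusted p from limma of up to 0.05 together with a difference of at least 2-fold, 2 members were higher (Cyp2f2 and Cyp2j6) and 5 lower (Cyp2d26, Cyp2d10, Cyp2d34, Cyp2d22 and Cyp2s1), beside 1.02% of all genes higher and 1.31% lower. For 9 of the 35 genes both group means lay within the range of the Y-linked genes in the controls. A change could not be read in those. That range rests on 3 genes and lies below the median signal of every array (5.43 to 5.53). A mean above it does not show that a gene was expressed.

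**Figure D1:**
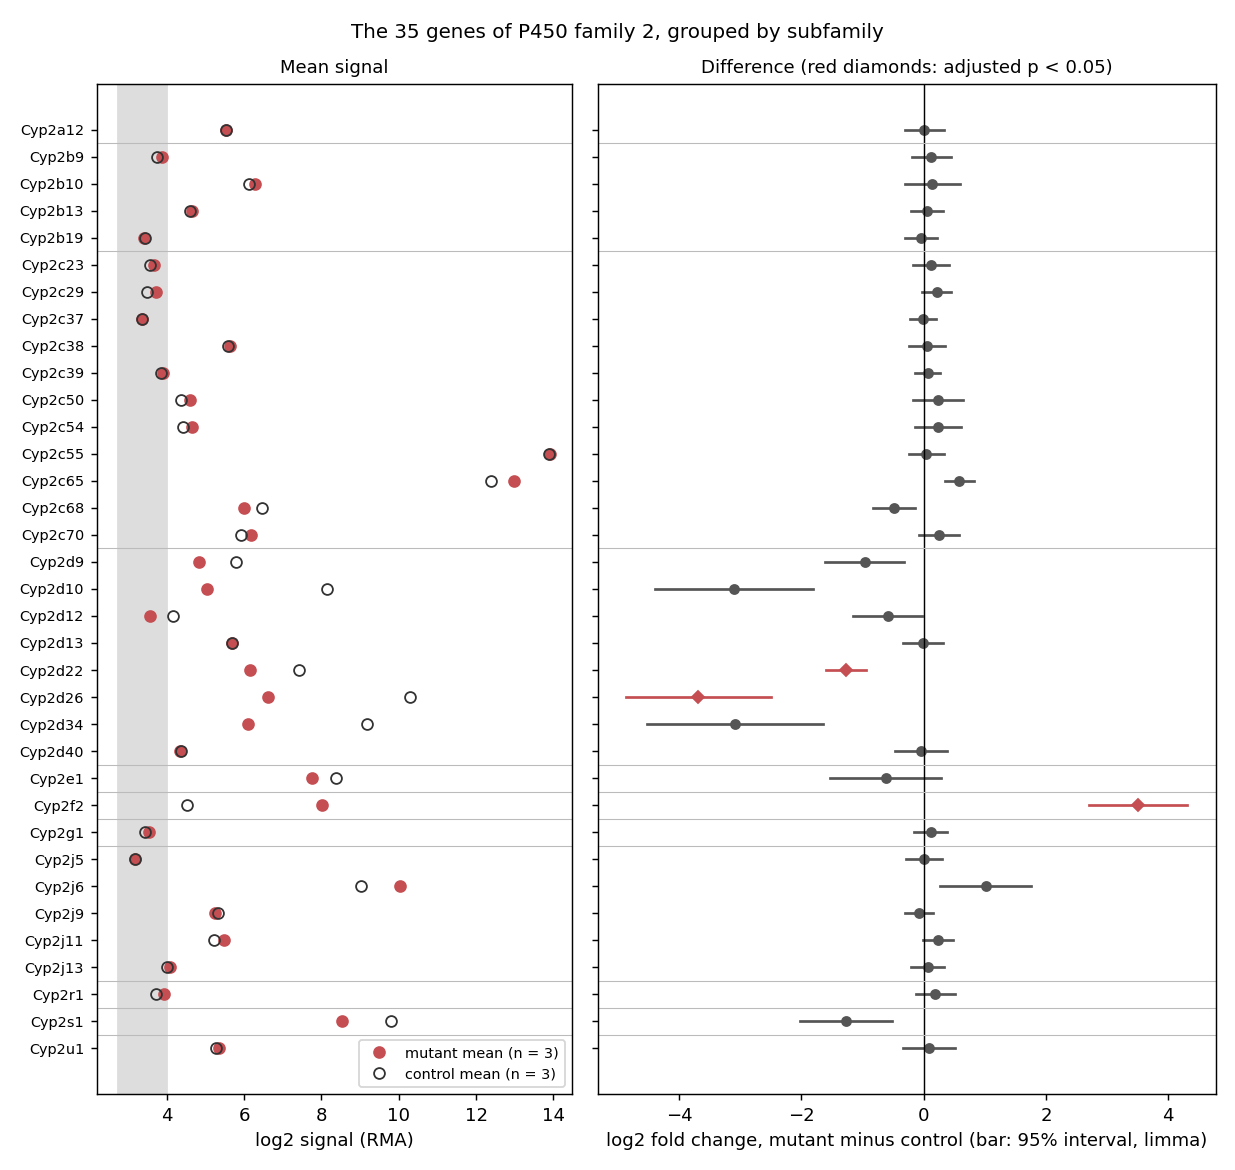
Mean log2 signal of the 35 genes in mutants (filled) and controls (open), with the grey band marking the Y-linked genes in the controls (2.75 to 4.01), and the log2 fold change of each gene, mutant minus control, with its 95% interval from limma. Cyp2d genes lie to the left of 0, Cyp2f2 lies far to the right at 3.51, and most other genes lie close to 0.

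The Cyp2d subfamily held both genes that fell. Its human member, CYP2D6, oxidises many basic drugs, and mice have many copies side by side. The 8 measured genes lie on chromosome 15 in the order Cyp2d22, Cyp2d10, Cyp2d9, Cyp2d12, Cyp2d34, Cyp2d13, Cyp2d40 and Cyp2d26 in the RefSeq annotation. All 8 had a negative log2 fold change, with a median of -1.12. In 6 of them every mutant lay below every control, beside 8.86% of all genes. Of the 8 genes 2 passed the test, both lower in the mutants, beside 0.396% of all genes that fell. Probes of such similar genes may bind the RNA of a neighbour, and the 8 rows are not 8 separate measurements.

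Cyp2d26 had the most negative log2 fold change of the family. It read 5.44, 7.33 and 7.07 in the mutants, against 10.45, 10.65 and 9.78 in the controls. The highest mutant was thus still far below the lowest control, and mutant 1 was the lowest of all arrays. The mean was 6.61 ± 1.02 in mutants and 10.29 ± 0.46 in controls (SD, n = 3 each), a log2 fold change of -3.68 (SE 0.50, adjusted p = 0.0391 by limma) or a ratio of 0.0779. Of the 6 fits with an array left out it passed in 2, without mutant 1 (adjusted p = 0.0212 by limma) and without mutant 2 (0.0495). The call was lost without mutant 3 (adjusted p = 0.132 by limma), control 1 (0.196), control 2 (0.0639) or control 3 (0.0889), while the log2 fold change stayed between -4.04 and -3.09.

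Cyp2d22, the first gene of the cluster and the one proposed as the mouse counterpart of CYP2D6, was lower by a smaller step but with a narrow spread. Its signal was 6.37, 5.97 and 6.11 in the mutants, against 7.40, 7.30 and 7.57 in the controls. The mean was 6.15 ± 0.20 in mutants and 7.42 ± 0.14 in controls (SD, n = 3 each), and the log2 fold change was -1.27 (SE 0.14, adjusted p = 0.0179 by limma). Its second probe set gave 5.77, 4.30 and 5.69 in the mutants, against 6.68, 6.33 and 6.80 in the controls. This set had a similar log2 fold change, -1.35, but did not pass (adjusted p = 0.236), with mutant 2 apart from the other mutants. Without mutant 3, control 1 or control 3 the first probe set did not pass either (adjusted p = 0.109, 0.102 and 0.0696 by limma).

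Cyp2d10 and Cyp2d34 had log2 fold changes nearly as large as that of Cyp2d26, without passing the test. Cyp2d10 read 5.11, 5.05 and 4.95 in the mutants, against 7.51, 7.35 and 9.55 in the controls (log2 fold change -3.10, SE 0.55, adjusted p = 0.0807 by limma). The SD was 0.08 among the mutants and 1.22 among the controls, where control 3 stood above the other two. When control 3 was left out the log2 fold change of Cyp2d10 was -2.39 and its adjusted p was 0.00312, and in that fit Cyp2d10 was the only member of the family that passed. Cyp2d34 read 7.19, 6.14 and 4.95 in the mutants, against 8.58, 8.88 and 10.06 in the controls (log2 fold change -3.08, SE 0.61, adjusted p = 0.105 by limma). Control 3 was again the highest array, and the mutants were spread over a range wider than that of the controls.

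Cyp2d9 and Cyp2d12 had smaller differences, also with separated groups. Cyp2d9, a steroid hydroxylase that is male-predominant in mouse liver, read 4.81, 4.87 and 4.81 in the mutants, against 5.21, 5.78 and 6.39 in the controls (log2 fold change -0.96, adjusted p = 0.230 by limma). Cyp2d12 read 3.44, 3.47 and 3.78 in the mutants, against 3.81, 3.94 and 4.69 in the controls (log2 fold change -0.59, adjusted p = 0.371). Neither passed the test, and control 3 was once more the highest array. For Cyp2d12 every mutant, control 1 and control 2 lay within the range of the Y-linked genes, so its difference could hardly be read. Cyp2d13, which RefSeq lists as a transcribed pseudogene, and Cyp2d40 had overlapping groups and log2 fold changes of -0.02 and -0.05. The 6 genes with separated groups therefore included the first 5 of the row and the last one, with Cyp2d13 and Cyp2d40 between them.

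**Figure D2:**
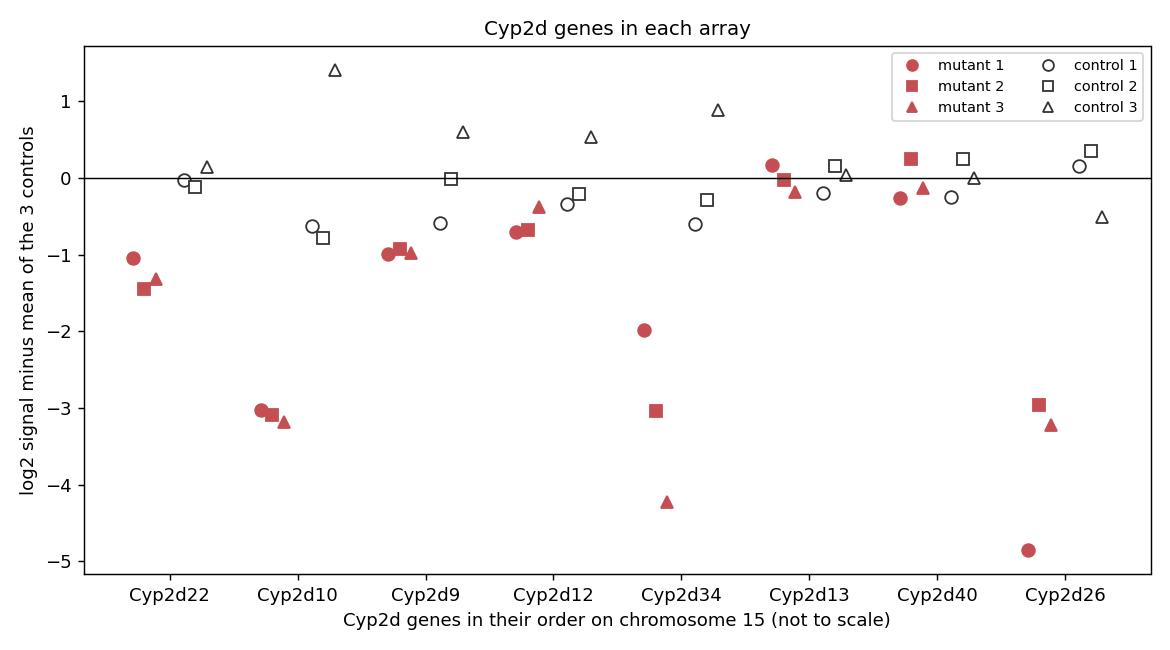
Log2 signal of the 8 Cyp2d genes in each array, relative to the mean of the 3 controls (vertical axis), with the genes in their order on chromosome 15 (horizontal axis, not to scale), and mutants filled and controls open. The mutants lie below the controls for 6 genes, control 3 is the highest array for Cyp2d22, Cyp2d10, Cyp2d9, Cyp2d12 and Cyp2d34, and mutant 1 is the lowest for Cyp2d26.

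Since HNF4α reads DNA, the letters before the Cyp2d and Cyp2c genes are shown with their values. RefSeq promoter windows (build GRCm38.p6, 250 bases before to 50 after a gene's start) were at hand for 27 of the 35 genes. They were searched on both strands for CAAAGTCCA, an element that HNF4 receptors bind and most other nuclear receptors do not, and for CAAAGGTCA, an element that other nuclear receptors also bind. CAAAGTCCA was in 0.475% of all 32851 windows and in those of 3 members, Cyp2c65, Cyp2c68 and Cyp2c70. CAAAGGTCA was in 0.478% of all windows and in no member. Another string, CAAAGGGCA, was noticed in the Cyp2d promoters and then counted. It was in 0.472% of all windows and in those of Cyp2d10, Cyp2d9 and Cyp2d40. The lines below give 54 bases, 5′ to 3′ on the strand of the gene, with these 9 letters in capitals. For Cyp2d26 the capitals mark the 9 letters at the place where its window holds CAAAG. These letters match none of the strings counted above. No window with any of those strings belonged to Cyp2d22 or Cyp2f2, the other called members, and their promoters are not shown. Whether they were among the 27 genes with a window is not given here. CAAAG was looked for in Cyp2d26 alone, and the share of all windows that hold it was not counted.
Cyp2d10, minus strand, chr15:82407214-82407267: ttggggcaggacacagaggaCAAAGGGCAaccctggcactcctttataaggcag
Cyp2d9, plus strand, chr15:82452307-82452360: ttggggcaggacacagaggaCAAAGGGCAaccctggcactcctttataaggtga
Cyp2d40, minus strand, chr15:82764202-82764255: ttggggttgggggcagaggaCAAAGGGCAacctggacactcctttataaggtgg
Cyp2d26, minus strand, chr15:82794270-82794323: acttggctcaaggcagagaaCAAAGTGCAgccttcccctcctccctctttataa
Cyp2c65, plus strand, chr19:39060870-39060923: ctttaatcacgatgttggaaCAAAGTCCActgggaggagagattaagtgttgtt
Cyp2c68, minus strand, chr19:39741145-39741198: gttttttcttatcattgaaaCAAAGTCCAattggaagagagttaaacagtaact
Cyp2c70, minus strand, chr19:40187317-40187370: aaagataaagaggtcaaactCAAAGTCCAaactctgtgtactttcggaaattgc

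The windows of Cyp2d10 and Cyp2d9 shared 51 of these 54 letters, and that of Cyp2d40 shared 44 with Cyp2d10 and 45 with Cyp2d9. The Cyp2d26 window shared fewer, 24 with Cyp2d10, 25 with Cyp2d9 and 25 with Cyp2d40. The capitals began 53 bases before the start of Cyp2d10, 50 before that of Cyp2d9, 113 before that of Cyp2d40 and 58 before that of Cyp2d26. Cyp2d10, Cyp2d9 and Cyp2d40 hold the same 9 letters and had log2 fold changes of -3.10, -0.96 and -0.05. Cyp2c65, Cyp2c68 and Cyp2c70, with CAAAGTCCA, had log2 fold changes of 0.59, -0.48 and 0.26. Genes that hold the same element had different log2 fold changes, but Cyp2d40 averaged only 4.33 in mutants and 4.38 in controls. These means lie just above the range of the Y-linked genes, where a fall could hardly be read. Whether the letters bear on the log2 fold changes was not tested. A match of letters is no measure of binding.

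Cyp2f2 was the only member that rose. Its enzyme is abundant in the club cells of the mouse airway and oxidises naphthalene. It read 8.06, 8.60 and 7.41 in the mutants, against 4.13, 5.03 and 4.39 in the controls. The controls stood just above the range of the Y-linked genes, and every mutant stood well above every control. The mean was 8.02 ± 0.59 in mutants and 4.52 ± 0.46 in controls (SD, n = 3 each), a log2 fold change of 3.51 (SE 0.34, adjusted p = 0.0137 by limma) or a ratio of 11.4. The call was lost without control 1 (adjusted p = 0.0834 by limma) or control 3 (0.0576), with log2 fold changes of 3.31 and 3.44. Its measured neighbour on chromosome 7, Cyp2a12, had overlapping groups (log2 fold change 0.01).

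Other genes of airway club cells were looked at beside it. Of 12 such genes 1 rose, beside 0.484% of all genes. This was Cbr2, a carbonyl reductase, which read 9.43, 9.85 and 10.59 in the mutants, against 6.66, 7.58 and 6.04 in the controls (log2 fold change 3.20, SE 0.43, adjusted p = 0.0391 by limma). It passed in 1 of the 6 fits that left out an array (adjusted p 0.0275 to 0.196). Gabrp, a subunit of a GABA receptor, had a log2 fold change of 1.08 (adjusted p = 0.0583). The secretoglobins that define club cells were not called. Scgb1a1 averaged 3.50 in mutants and 3.47 in controls, within the background range, and Scgb3a2 averaged 4.50 in mutants and 4.51 in controls. The median of the 12 genes was 0.08, close to the 0.05 of all genes.

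**Figure D3:**
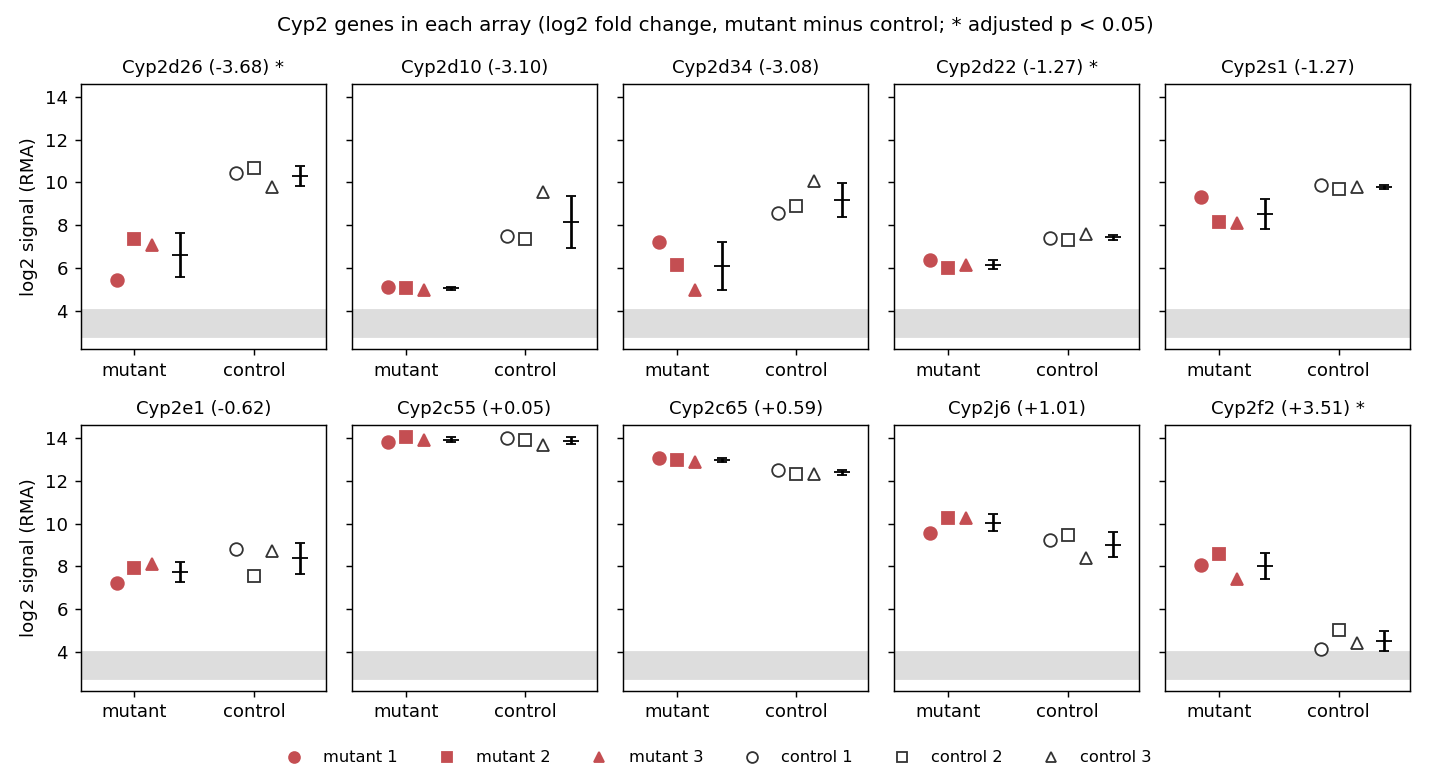
Log2 signal (vertical axis) of 10 Cyp2 genes in each mutant (left, filled) and control (right, open) array, with the mean and SD of each group beside the points and the grey band marking the Y-linked genes in the controls (2.75 to 4.01). Cyp2d26, Cyp2d22 and Cyp2f2 (starred) passed the test, and Cyp2c55 overlaps at about 14 in both groups.

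Cyp2c enzymes hydroxylate steroids and drugs and turn arachidonic acid into epoxides. None of the 11 genes of the subfamily was called, although 2 of them, Cyp2c55 and Cyp2c65, gave signals near the top of the array's range. Cyp2c55, a colon enzyme, read 13.80, 14.06 and 13.91 in the mutants, against 14.02, 13.91 and 13.70 in the controls. The groups overlapped, and the log2 fold change was 0.05 with a 95% interval of -0.25 to 0.34. Its sign was not settled, since it was -0.02 without mutant 2 and -0.04 without control 3. Cyp2c65, the next gene on chromosome 19 and also an enzyme of the gut, read 13.06, 13.00 and 12.90 in the mutants, against 12.52, 12.33 and 12.35 in the controls. The groups were separated and tight, but the log2 fold change of 0.59 (SE 0.10) missed the threshold (adjusted p = 0.0737 by limma). It passed in 4 of 15 alternatives (adjusted p 0.0400 to 0.236 over all 15). Signal can flatten at this end of the range, and the probe set of Cyp2c65 is of a type that may match several related genes.

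The remaining 9 Cyp2c genes had group means of 6.47 or less. Cyp2c68 read 5.87, 6.16 and 5.97 in the mutants, against 6.45, 6.71 and 6.26 in the controls, with every mutant below every control and a log2 fold change of -0.48 (adjusted p = 0.260 by limma). It was the only Cyp2c gene with separated groups in that direction. Cyp2c70, a bile acid hydroxylase of mouse liver, averaged 6.18 in mutants and 5.93 in controls, and Cyp2c38 averaged 5.64 in mutants and 5.59 in controls. Both overlapped. In all, 9 of the 11 Cyp2c genes had a positive log2 fold change, beside 10984 of the 18193 genes. For 4 of the 11 both group means lay within the background range. Of these, Cyp2c23, Cyp2c29 and Cyp2c39 are among the 9.

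Other members with a mean signal of 8 or more in a group come from subfamilies with 1 or few measured genes. Cyp2s1, an enzyme of epithelia that metabolises retinoids and eicosanoids, read 9.31, 8.17 and 8.09 in the mutants, against 9.87, 9.71 and 9.79 in the controls. The controls had an SD of 0.08, and mutant 1 lay closer to them than mutants 2 and 3 did. The log2 fold change was -1.27 (SE 0.31, adjusted p = 0.178 by limma). With mutant 1 left out it was -1.66 and passed (adjusted p = 0.00769), in that fit alone among those that left out an array.

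Cyp2j6, of a subfamily that makes epoxides of arachidonic acid, read 9.57, 10.28 and 10.24 in the mutants, against 9.21, 9.46 and 8.38 in the controls. Every mutant was above every control, by a small margin in the case of mutant 1. The log2 fold change was 1.01 (SE 0.32, adjusted p = 0.273 by limma). Its second probe set gave 0.87 (adjusted p = 0.341), with overlapping groups.

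Cyp2e1, which oxidises ethanol and small solvents, read 7.22, 7.92 and 8.10 in the mutants, against 8.82, 7.55 and 8.73 in the controls. The groups overlapped (log2 fold change -0.62, SE 0.38, adjusted p = 0.516 by limma). Fat cells express Cyp2e1, and the log2 of the summed signal of 8 adipocyte markers was between 10.70 and 11.41 in the mutants and between 11.32 and 12.13 in the controls, with none of the 8 called. The part of fat in the Cyp2e1 values was not tested.

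Liver is the main site of most of these enzymes. Of 13 hepatocyte markers none was called, and Alb, which encodes albumin, was between 4.69 and 4.78 in the mutants and between 4.51 and 5.15 in the controls. The log2 of their summed signal was between 8.85 and 9.0 in the mutants and between 9.35 and 10.03 in the controls. Among them Ttr and Cps1, both also known from gut, had the most negative log2 fold changes, -1.0 and -2.36, and the part of liver-type RNA in the Cyp2d values was not tested.

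The 25 members without a value per array in the plot of named genes had log2 fold changes between -0.96 and 0.26, and none was called. Their groups were separated for 6, with 3 above and 3 below, beside 14.5% of all genes above and 8.86% below. Of those above, Cyp2c29 and Cyp2c39 had both group means within the background range. Of those below, Cyp2d12 had its mutant mean within that range. Cyp2b10, the classical target of the xenobiotic receptor CAR, averaged 6.27 ± 0.21 in mutants and 6.13 ± 0.33 in controls (SD, n = 3 each), and its other 2 probe sets lay within the background range in both groups. Cyp2j11 averaged 5.47 in mutants and 5.23 in controls, with the mutants above the controls (log2 fold change 0.24, adjusted p = 0.394 by limma). Cyp2u1, a fatty acid hydroxylase, averaged 5.36 in mutants and 5.26 in controls. Cyp2r1, the vitamin D 25-hydroxylase, averaged 3.92 in mutants and 3.73 in controls, both within the background range, so its RNA could not be read here. One probe set could not be given to a single gene, since its platform entry lists both Cyp2a5 and Cyp2a4. It averaged 4.44 in mutants and 4.16 in controls (log2 fold change 0.28), and its groups overlapped.

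The genes that P450 enzymes work with were compared in the same fit. Of 9 electron transfer and membrane partners 1 fell, beside 0.396% of all genes. This was Pgrmc1, a haem-binding membrane protein that binds P450 enzymes, which read 10.47, 10.52 and 10.50 in the mutants, against 11.30, 11.19 and 11.10 in the controls (log2 fold change -0.70, SE 0.10, adjusted p = 0.0390 by limma). It did not pass in any of the 6 fits with an array left out (adjusted p 0.0570 to 0.180). The median of the list was 0.01. The carriers Cyb5b (log2 fold change 0.36) and Cyb5r1 (0.52) were above the controls in every mutant without passing. Por, the NADPH-P450 reductase, was not analysed here.

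Every P450 needs haem. None of 12 genes of haem synthesis and breakdown was called, although all 12 had a positive log2 fold change, with a median of 0.25 beside 0.05 for all genes. Alas1, the rate-limiting enzyme of haem synthesis outside red cells, read 11.19, 11.68 and 11.87 in the mutants, against 10.84, 10.64 and 9.84 in the controls. Its groups did not overlap, and its log2 fold change was 1.14 (SE 0.29, adjusted p = 0.188 by limma). Blvrb, a biliverdin reductase, and Alad, the enzyme after Alas1, had log2 fold changes of 0.74 and 0.42 and were not called.

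Among 20 transcription factors that control P450 genes 3 fell and none rose, with a median of -0.19. Over all genes 0.396% fell and 0.484% rose. Hnf4a, the deleted gene, was among the 3 that fell. Cebpa, a factor of differentiated liver and gut cells, read 8.85, 8.65 and 8.65 in the mutants, against 9.71, 9.60 and 9.76 in the controls (log2 fold change -0.97, SE 0.10, adjusted p = 0.0174 by limma). Ppara, the fatty acid receptor, had a mean of 7.82 ± 0.13 in mutants and 8.84 ± 0.20 in controls (SD, n = 3 each), a log2 fold change of -1.01 (adjusted p = 0.0368). With an array left out Cebpa passed in 2 of 6 fits (adjusted p 0.0322 to 0.108) and Ppara in 1 (0.0318 to 0.159), while Hnf4a passed in all 6. The drug receptors were not called. Nr1i2, which encodes PXR, averaged 7.75 in mutants and 8.07 in controls, and Nr1i3, which encodes CAR, averaged 4.49 in mutants and 4.73 in controls.

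Downstream of the family, none of 9 epoxide hydrolases and eicosanoid enzymes was called (median 0.05). Ephx3, an epoxide hydrolase, had the smallest p among them, with a log2 fold change of 0.67 (adjusted p = 0.117 by limma). Of 7 genes of vitamin D handling around Cyp2r1, Cubn, the receptor that takes up vitamin D binding protein, fell to a mean of 4.02 ± 0.31 in mutants, against 6.09 ± 0.26 in controls (log2 fold change -2.07, adjusted p = 0.0135). The median of these genes was 0.06. Of 37 genes of the other P450 families 2 fell, none rose, and the median was 0.03. Over all genes 0.396% fell and 0.484% rose. Cyp4b1, a fatty acid hydroxylase, averaged 7.53 ± 0.28 in mutants and 11.19 ± 0.68 in controls (SD, n = 3 each), a log2 fold change of -3.67 (adjusted p = 0.0112) close to that of Cyp2d26. Cyp4v3 had a log2 fold change of -1.26 (adjusted p = 0.0385). Of the 6 fits with an array left out, Cubn passed in 3 (adjusted p 0.0138 to 0.0755), Cyp4b1 in 5 (0.00911 to 0.0509) and Cyp4v3 in 1 (0.0292 to 0.191).

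**Figure D4:**
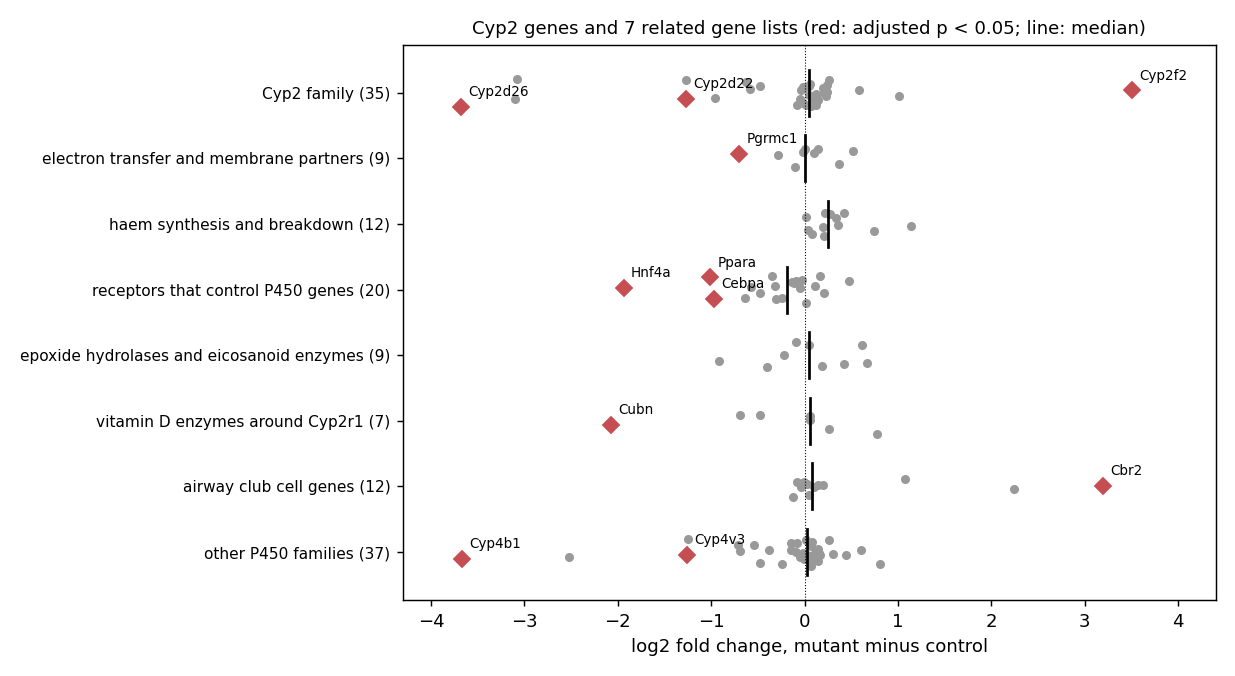
Log2 fold change, mutant minus control (horizontal axis), of the Cyp2 genes and of the genes of 7 related lists, 1 point per gene, with called genes as labelled red diamonds and the median of each list as a vertical line. The 7 lists and the family have medians between -0.19 and 0.25, and the called genes are few in each.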

How the data were processed

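Per the labels and the study's methods, total RNA of the proximal colon of 3 mutant and 3 control mice was hybridised to Affymetrix mouse genome arrays, and the authors processed them by RMA and screened them with FlexArray. The deposited values are log2 signals, used as deposited (median per array 5.43 to 5.53). RMA forces similar distributions on the arrays and compresses low signals. After 64 control probe sets were left out, 45037 were tested with limma 3.58.1 (R 4.3.3), mutant minus control, with Benjamini-Hochberg adjustment over all of them and calls at an adjusted p under 0.05. Precision is limited by the number of arrays. For a single gene, exact two-sided permutation of 6 arrays cannot go below p = 0.1. Platform annotation gave 1 symbol for 34945 probe sets, several for 932 and none for 9160.

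A value in each array was given for every called member, for members with a log2 fold change of 1 or more in size and separated groups, and for members with a mean of 8 or more in a group. Other members and genes were named by signal or p, and Cyp2d12, Nr1i2, Nr1i3, the secretoglobins, the hepatocyte markers and the arrays of Cyp2d9 and Cyp2c68 were added after their values were seen. Members and lists were chosen with earlier results of these data known. Alternatives were the SAM test of the study's methods, left-out arrays, weights, a replicate block, other normalizations, filters and probe set rules. The code was tested on simulated data. Protein sequences were not used here.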

Additional observations from a re-analysis of the deposited data

How the results depend on the processing

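At an adjusted p under 0.05, 3 Cyp2 genes were called, 239 probe sets in all and 8 genes of the partner lists (Hnf4a included). With 1 array left out these counts were 0 to 4, 39 to 336 and 2 to 6. No Cyp2 gene passed without control 1, only Cyp2f2 without mutant 3, only Cyp2d10 without control 3, and Cyp2d22 and Cyp2f2 without control 2. The same 3 genes passed without mutant 2, the array low in muscle RNA. With array weights 599 probe sets passed and 5 Cyp2 genes, the 3 together with Cyp2c65 and Cyp2d10. Adjustment over 1 probe set per gene gave the same 5. By unadjusted p-values up to 0.05 and a difference of at least 2-fold, SAM called 684 probe sets and limma 679, and each called the same 7 Cyp2 genes. The replicate numbers were not treated as pairs. Correlations of same-numbered deviations were -0.02, 0.25 and -0.15, and those of different-numbered ones ran from -0.29 to 0.38. With 3 arrays per group these values cannot decide whether the mice were paired. With the replicate numbers as a block 62 probe sets passed, with 1 Cyp2 gene (Cyp2f2). The 1 gene of the partner lists that passed was Hnf4a itself (adjusted p = 0.0139 by limma). Median centring, repeated quantile normalization, an intensity trend and leaving out dim probe sets kept the counts within 1.5 times, with the same 3 Cyp2 genes except that the intensity trend also called Cyp2c65 (adjusted p = 0.0400 by limma). The mean of all probe sets of a gene also gave 3 Cyp2 genes, with Cyp2c65 in place of Cyp2d22. The log2 fold change of Cyp2c55 ran from -0.0445 (without control 3) to 0.117 (without control 1) with an array left out and was also negative without mutant 2 (-0.0207), and none of the other 9 Cyp2 genes plotted by array changed sign in any alternative. The causes were not tested. SAM p-values adjusted over all probe sets cannot decide a call at 0.05. Their null pools 20 relabellings of the arrays, the true one and its mirror included, so no adjusted value can fall below 0.1. The adjusted p by SAM was 0.1 for Hnf4a, 0.107 for Cyp2f2, 0.107 for Cyp2d22 and 0.118 for Cyp2d26.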
